A study of Mus musculus with 6 samples.

Results

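The annexins examined here were the 9 genes Anxa1, Anxa2, Anxa3, Anxa4, Anxa5, Anxa6, Anxa7, Anxa8 and Anxa11 in the mouse embryonic fibroblast line NIH/3T3. They were taken by symbol from 54752 genes in the count table and are 9 of the 12 annexin genes found in it. The list names genes and sets no threshold, but it was selected on earlier results of these counts, in which Anxa8 had a high log2 fold change over vehicle. The 3 annexin genes left off it did not pass the filter on low counts. Anxa9 had 18 to 48 counts in a library, Anxa13 had 0 to 7, and Anxa10 had 0 in all 6 libraries. Separate from that filter, a limit of 3 counts per library was used for detection, and Anxa9 lay above it in every library. As the members were chosen with those results known, the differences of all 9 genes from vehicle are given as a description, without p-values.

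RNA was sequenced from 3 groups of 2 replicates each, all cultured for 72 h. The vehicle group received PBS, and both other groups received TGF-β1 at 1 ng/ml. To this either DMSO was added or BI6727, an inhibitor of the mitotic kinase PLK1, at 5 μM. The group with TGF-β1 and DMSO therefore differed from vehicle by both additions, and their effects cannot be told apart. All groups are a single cell line, and nothing in the labels says whether the replicates were separate cultures, so that p-values measure only the spread between these libraries. Libraries held 18362378 to 24452153 counts. The DMSO replicates lay farther apart than the others: the SD over genes of their log2 difference was 0.377, against 0.163 for vehicle and 0.147 for BI6727. That difference, replicate 1 minus replicate 2, had a median of -0.34 in the fifth of tested genes with the shortest exons and 0.37 in the fifth with the longest.

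Annexins are cytosolic proteins that bind acidic phospholipids when calcium rises, through a conserved core of repeats, while their differing N-terminal ends bind partner proteins. They link membranes to the actin cortex, take part in vesicle traffic and exocytosis, and gather at wounds of the plasma membrane during repair. Annexin A2 with S100A10 is known for binding plasminogen and its activators at the cell surface, and annexin A1 for dampening inflammation through formyl peptide receptors.

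The cells carried the markers of fibroblasts. All 8 fibroblast markers, Col1a1 and Vim among them, passed the filter on low counts, which asked for 10 CPM (counts scaled to the size of the library) in more than 3 samples. Of 3 myofibroblast markers, Acta2 passed and Tagln and Cnn1 did not. No marker of 7 for epithelial, 5 for immune or 4 for endothelial cells passed it (0 genes), and the highest count of any of these in a library was 99. A lower level in these bulk samples cannot be told apart from fewer cells that make the transcript.

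The sequence ahead of the start site is shown for Anxa8, which differed most from vehicle, and for Anxa4 and Anxa11, which were not called in any comparison. These windows hold no annotated exon. Each line gives the 250 bases before the RefSeq start site on the gene's strand (GRCm38.p6, the build of mm10). Capitals mark matches on either strand to any of 4 motifs. The core that SMAD proteins bind was searched as CAGAC. The site of AP-1 factors was searched as TGANTCA. The site of TEAD factors was searched as GGAATG. The TATA box near many start sites was searched as TATAAA. No matches overlapped.
Anxa8 (chr14:34085729-34085978, plus strand): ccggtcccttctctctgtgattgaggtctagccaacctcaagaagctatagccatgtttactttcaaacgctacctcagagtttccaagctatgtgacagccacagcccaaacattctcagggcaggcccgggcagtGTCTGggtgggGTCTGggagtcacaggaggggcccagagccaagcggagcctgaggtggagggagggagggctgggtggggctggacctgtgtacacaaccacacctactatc
Anxa4 (chr6:86793585-86793834, minus strand): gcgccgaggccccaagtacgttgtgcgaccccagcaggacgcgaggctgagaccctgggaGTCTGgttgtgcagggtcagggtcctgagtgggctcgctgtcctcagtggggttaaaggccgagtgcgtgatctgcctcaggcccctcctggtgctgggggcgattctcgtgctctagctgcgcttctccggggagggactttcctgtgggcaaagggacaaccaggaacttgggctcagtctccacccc
Anxa11 (chr14:25841905-25842154, plus strand): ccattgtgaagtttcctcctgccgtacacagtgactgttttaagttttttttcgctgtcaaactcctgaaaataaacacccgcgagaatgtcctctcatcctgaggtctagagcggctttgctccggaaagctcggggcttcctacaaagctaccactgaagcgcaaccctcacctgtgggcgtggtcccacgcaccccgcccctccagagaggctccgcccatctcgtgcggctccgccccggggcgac

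The Anxa8 window held CAGAC at 2 places, 113 to 109 and 102 to 98 bases before the start, both on the opposite strand as GTCTG. The Anxa5 window also held CAGAC at 2 places, the Anxa4 window shown held 1, and those of Anxa1, Anxa2, Anxa7 and Anxa11 held 0. Of 32851 promoter windows of the same length, 42.2% held CAGAC and 11.7% held it at 2 or more places, so Anxa8 and Anxa5 share a feature that many genes have. TATAAA was found in the windows of Anxa1, 32 to 27 bases before the start, and Anxa2, and in 12.4% of all windows. TGANTCA was found in that of Anxa2 and in 6.7% of all, and GGAATG in that of Anxa1 and in 12.6% of all. The table of promoters matched 7 of the 9 members; Anxa3 and Anxa6 are named only. Of the windows not shown, annotated exons cover 250 bases of that of Anxa1, 63 of that of Anxa2, 208 of that of Anxa5 and 192 of 1 of the windows of Anxa7. These are matches of letters and not sites known to be bound.

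Annexin mRNA was abundant in these fibroblasts. The 9 genes took 0.301% and 0.317% of all counts in vehicle, 0.272% and 0.267% with DMSO, and 0.261% and 0.259% with BI6727, so that both treated groups lay below vehicle. Levels of different genes were compared per length, as normalized CPM per kb of exon. In vehicle, Anxa1 was highest at 481 ± 6.34 normalized CPM per kb (SD, n = 2). Anxa5, the annexin used as a probe for exposed phosphatidylserine, followed at 267 ± 5.52, and Anxa2 at 240 ± 15.9. Then came Anxa6, which carries a longer core of repeats than its relatives, at 36.7 ± 0.316. Anxa4, Anxa3 and Anxa7 followed at 26.9 ± 0.135, 26.1 ± 2.46 and 23.2 ± 2.37, and neighbours among these 3 were not apart in every library. Anxa11 lay at 4.90 ± 0.870 and Anxa8 last, at 0.489 ± 0.301.

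The order of levels was different in the treated groups. With TGF-β1 and DMSO, Anxa1 and Anxa5 were level, at 322 ± 19.2 and 320 ± 10.0 normalized CPM per kb (SD, n = 2), and their libraries overlapped. With TGF-β1 and BI6727, Anxa5 came first at 324 ± 3.63 and Anxa1 next at 289 ± 5.54, with no overlap. Anxa8 moved from the last place to the sixth in both treated groups, at 26.4 ± 1.65 with DMSO and 24.5 ± 0.218 with BI6727. That is a level like those of Anxa4 (23.8 ± 0.121 and 22.8 ± 2.12) and Anxa7 (22.3 ± 0.763 and 21.8 ± 0.395), and with BI6727 the libraries of Anxa8 and Anxa4 overlapped.

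**Figure D1:**
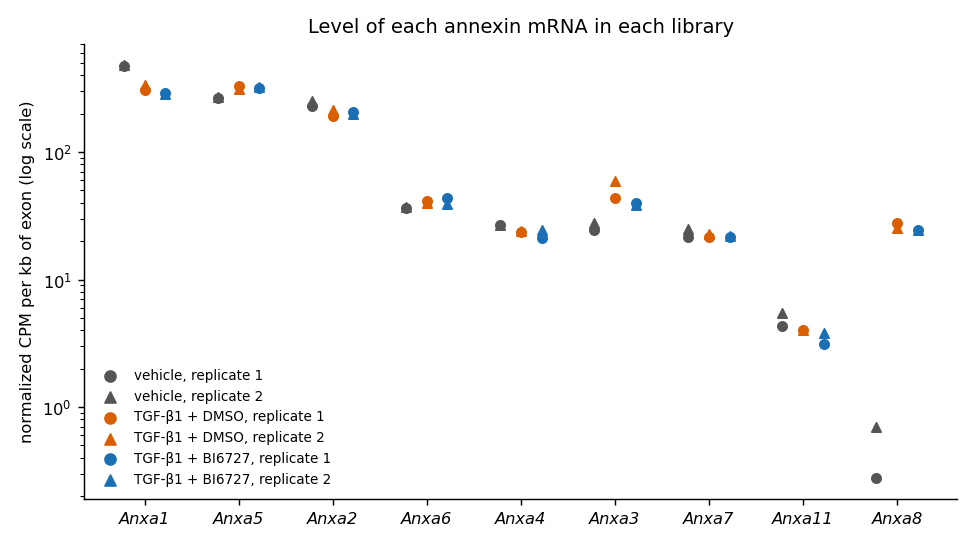
Level of each of the 9 annexins, as normalized CPM per kb of exon on a log axis, with 1 point per library; colours are the groups and shapes the replicates. Anxa1, Anxa5 and Anxa2 lie above the other members in all 6 libraries, and only Anxa8 spans more than a 10-fold range.

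Of the summed level of the 9 genes per length, Anxa1 made up 44.0% and 42.9% in the vehicle libraries, 31.1% and 32.4% with DMSO, and 30.0% and 29.6% with BI6727. Anxa5 made up 24.4% and 24.0% in vehicle, 33.1% and 30.2% with DMSO and 32.9% and 33.9% with BI6727. Neither gene's treated libraries overlapped the vehicle libraries. Anxa2 stayed between 19.5% and 22.2% in every library. Anxa8 went from 0.026% and 0.062% in vehicle to between 2.44% and 2.79% in the treated libraries. These are shares of a whole, so a lower share of 1 gene raises the others.

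**Figure D2:**
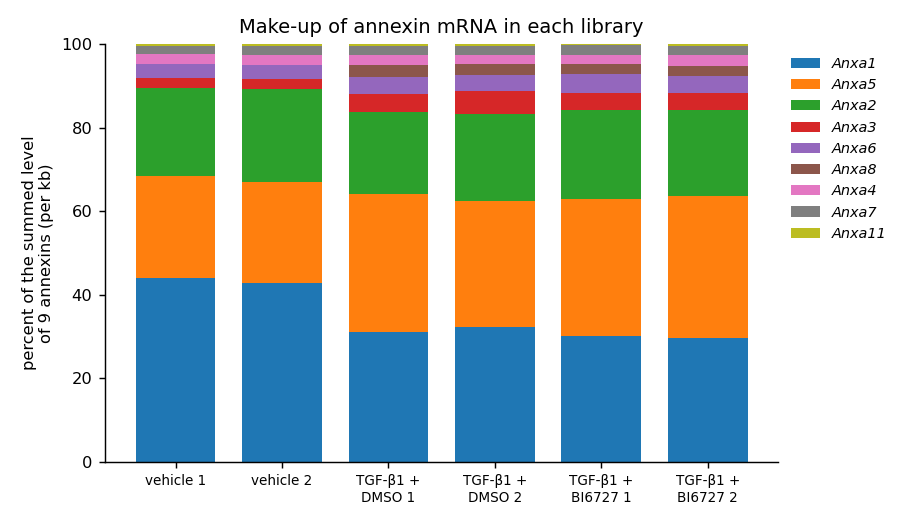
Percent of the summed level of the 9 annexins (normalized CPM per kb) that each gene makes up, with 1 bar per library. Anxa1 takes 42.9% to 44.0% of the vehicle bars and 29.6% to 32.4% of the treated bars, while Anxa5 takes 24.0% to 24.4% and 30.2% to 33.9%.

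The first comparison asked which annexins differed between TGF-β1 with DMSO and vehicle. Calls were made over all 9518 genes that passed the filter, with edgeR's quasi-likelihood test, and needed both a fold change above 2 and a p-value that stayed below 0.01 after Benjamini-Hochberg adjustment. All 9 members passed it, Anxa8 through the treated libraries only. Of the 9, 1 was called higher (Anxa8) and 0 lower, where 2.56% of all genes tested were called higher and 2.53% lower. The groups did not overlap in 8 of the 9, 4 with higher and 4 with lower values, and in 62.9% of all genes. Their median log2 fold change was -0.061, against -0.0045 for all genes tested. These counts are a description, as the list was chosen with this comparison known.

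Anxa8 (chromosome 14, 34085981 to 34100571 in mm10) encodes an annexin best known from stratified epithelia. It had 10 and 29 counts in the vehicle libraries, with exact Poisson 95% intervals of 4.80 to 18.4 and 19.4 to 41.6 counts that cover counting error only. With DMSO it had 1075 and 987 counts, and with BI6727 it had 832 and 1104. As normalized CPM, scaled to the library size, this was 0.519 and 1.32 in vehicle, 51.9 and 47.5 with DMSO, and 46.3 and 45.7 with BI6727. The 4 treated libraries lay close together and far above both vehicle libraries. Scaled to library size, the vehicle intervals were 0.249 to 0.955 and 0.884 to 1.90 normalized CPM, which overlap.

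The fitted log2 fold change of Anxa8 was 5.72 (standard error 0.28) for TGF-β1 with DMSO against vehicle and 5.60 (standard error 0.28) for TGF-β1 with BI6727 against vehicle. The comparisons share the vehicle libraries. The size rested on which vehicle library was used. Without vehicle replicate 1 it was 5.22 and 5.11, and without vehicle replicate 2 it was 6.56 and 6.45. The exons of Anxa8 overlap no other gene, and 0% of the 50-base windows of its transcripts occur in those of other genes. The 7 epithelial markers summed to 0.623 to 1.32 normalized CPM in vehicle, 1.93 to 2.08 with DMSO and 0.538 to 1.39 with BI6727, with Krt5 and Krt18 at 0 counts in all libraries. Among them Krt14 had 3 and 4 counts in vehicle, 36 and 38 with DMSO, and 14 and 10 with BI6727. It made up most of the sum with DMSO, at 1.74 and 1.83 normalized CPM. Krt8 had 0 and 0 counts in vehicle, 2 and 2 with DMSO, and 7 and 2 with BI6727. Trp63 went the other way, with 5 and 18 counts in vehicle and 0 in every treated library. Cdh1 had 4 and 7 counts in vehicle, 4 and 0 with DMSO, and 4 and 1 with BI6727. The 4 endothelial markers summed to 0.312 to 0.910 in vehicle, 2.89 to 3.77 with DMSO and 2.00 to 2.65 with BI6727, with Kdr at 0 counts. Cdh5 had 0 and 11 counts in vehicle, 64 and 36 with DMSO, and 22 and 44 with BI6727. Pecam1 had 4 and 5, then 10 and 24, and then 12 and 12. Tek had 2 and 4, then 4 and 0, and then 2 and 8. Of the myofibroblast markers, Acta2 made up nearly all of a sum of 93.9 to 101 in vehicle, 475 to 477 with DMSO and 328 to 349 with BI6727. Tagln had 9 and 6 counts in vehicle, 17 and 33 with DMSO, and 21 and 33 with BI6727. Cnn1 went the other way, with 25 and 21, then 6 and 2, and then 8 and 14. The epithelial sum was thus higher than vehicle with DMSO, and the endothelial and myofibroblast sums were higher in both treated groups. The immune sum was lower in both, with 3.84 to 5.05 in vehicle, 3.04 to 3.13 with DMSO and 3.39 to 3.68 with BI6727. That of the fibroblast markers overlapped vehicle in both treated groups, with Pdgfra and Thy1 lower and Vim higher in each. Single markers within a class did not all move the same way. The part of these markers in the result was not tested.

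Among the 9517 other genes tested, those with a profile over the 6 libraries like that of Anxa8 included Ctsf, of the lysosomal protease cathepsin F. The Euclidean distance between the log2 changes of the libraries from the vehicle mean was 1.23. Col7a1, of the collagen of anchoring fibrils, lay at a distance of 2.06, Itga2, of a collagen-binding integrin, at 2.26, and Jag1, a Notch ligand, at 2.33. The log2 changes of Anxa8 from the vehicle mean were 5.88 and 5.75 with DMSO and 5.72 and 5.70 with BI6727. Those of Ctsf were 6.27 and 6.78, and 6.18 and 5.97, so that they lay above Anxa8 in every treated library. Col7a1, Itga2 and Jag1 lay below Anxa8 in every treated library, with log2 changes from 4.30 to 4.96.

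Anxa3 (chromosome 5, 96793339 to 96845966) was the member with the next largest difference above vehicle. It had 88.6 and 101 normalized CPM in vehicle, 158 and 215 with DMSO, and 145 and 140 with BI6727. Both treated groups lay above vehicle without overlap, and DMSO replicate 2 stood above the other treated libraries. The log2 fold change against vehicle was 0.97 (standard error 0.15) with DMSO and 0.58 (standard error 0.15) with BI6727, and neither was called. The first lies just under a fold change of 2. It was 1.17 without DMSO replicate 1, when Anxa3 was called, and 0.75 without DMSO replicate 2. Gm42603 overlaps part of the exons of Anxa3, in all 3.07% of their length.

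Anxa1 (chromosome 19, 20373428 to 20390944), the gene with the highest level in vehicle, was the member farthest below vehicle. It had 1242 and 1265 normalized CPM in vehicle, 804 and 875 with DMSO, and 763 and 743 with BI6727. Every treated library lay below both vehicle libraries, and the BI6727 libraries were the lowest. The log2 fold change against vehicle was -0.58 (standard error 0.11) with DMSO and -0.73 (standard error 0.11) with BI6727. Neither reached a fold change of 2, so Anxa1 was not called in either.

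Anxa2 and Anxa5, the other abundant members, differed less. Anxa2 (chromosome 9, 69453620 to 69491795), whose protein pairs with S100A10, had 854 and 938 normalized CPM in vehicle, 720 and 798 with DMSO, and 773 and 742 with BI6727. Its log2 fold change was -0.24 (standard error 0.11) in both comparisons with vehicle. Anxa5 (chromosome 3, 36448923 to 36475894) had 468 and 482 normalized CPM in vehicle, 582 and 556 with DMSO, and 570 and 580 with BI6727. Its log2 fold change was 0.26 (standard error 0.095) with DMSO and 0.27 (standard error 0.095) with BI6727. With offsets for exon length these were smaller, 0.15 and 0.22. Neither gene was called, though the treated libraries of Anxa2 were all below vehicle and those of Anxa5 all above.

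The remaining members lay within a log2 fold change of 0.5 of vehicle. Anxa6 (chromosome 11, 54979108 to 55033445), linked to cholesterol and endocytic traffic, had 107 and 108 normalized CPM in vehicle, 120 and 117 with DMSO, and 128 and 115 with BI6727. Anxa4 (chromosome 6, 86736840 to 86793584), an annexin of secretory epithelia and of membrane repair, had 125 and 125, then 110 and 111, and then 99.2 and 113. Anxa7 (chromosome 14, 20455260 to 20480133), also named synexin, had 129 and 149, then 130 and 137, and then 129 and 132.

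Of these, the treated libraries of Anxa6 were all above vehicle, those of Anxa4 all below, and those of Anxa7 overlapped vehicle. Anxa11 (chromosome 14, 25842156 to 25886804), whose protein has a long N-terminal tail that binds the calcium sensor ALG-2, was the least abundant of these, with 17.7 and 22.8 normalized CPM in vehicle, 16.6 and 16.5 with DMSO, and 13.0 and 15.8 with BI6727. Its treated libraries lay below vehicle, and 16.2% of its 50-base windows occur in transcripts of other genes, so its values are uncertain.

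**Figure D3:**
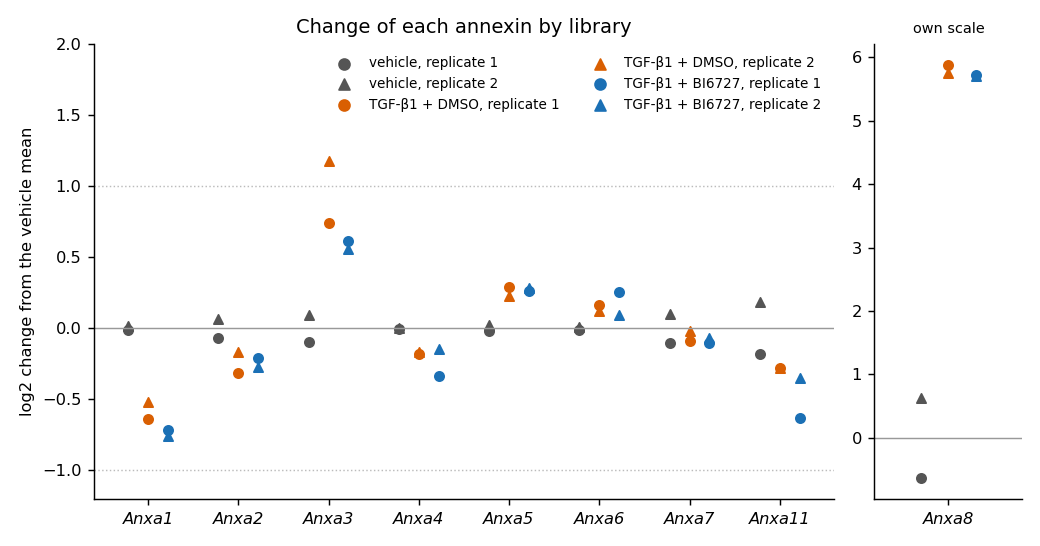
Log2 change of each library from the vehicle mean for the 9 annexins, with Anxa8 on its own scale at the right and dotted lines at a fold change of 2. Anxa8 lies at 5.70 to 5.88 in the 4 treated libraries; of the others, only Anxa3 in DMSO replicate 2 (1.18) passes a dotted line.

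The comparison of TGF-β1 with BI6727 against vehicle gave the same single call. Of the 9 members, 1 was called higher (Anxa8) and 0 lower, where 2.34% of all genes were called higher and 2.96% lower. The groups did not overlap in 8 of the 9, and in 76.8% of all genes. The median log2 fold change of the members was -0.092, and 0.0029 for all genes tested. As this comparison shares its vehicle libraries with the other, the likeness of the values is not independent of it.

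The third comparison asked whether BI6727 moved the annexins in the presence of TGF-β1, against DMSO with TGF-β1. None did past the threshold: 0 of the 9 members were called higher and 0 lower, as were 0% of all genes in either direction in edgeR's quasi-likelihood test, and DESeq2 also called 0 members. At an unadjusted p-value below 0.05 there was 1 member, Anxa3, and 6.68% of all genes tested. The BI6727 libraries lay below both DMSO libraries for 4 members (Anxa1, Anxa3, Anxa8 and Anxa11) and above them for 0, while the groups did not overlap in 34.1% of all genes. Of the log2 differences, 2 were above 0 and 7 below, with a median of -0.060 against -0.0028 for all genes tested.

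For Anxa8, the BI6727 minus DMSO difference was -0.11 on the log2 scale (95% interval -0.57 to 0.35, adjusted p = 0.92 in the edgeR fit), so that a difference of 1 in either direction lies outside the interval. For Anxa3 it was -0.39 (95% interval -0.75 to -0.033, adjusted p = 0.722 from the same edgeR test). This difference rested on DMSO replicate 2. Without that library it was -0.17 (adjusted p = 0.275 in edgeR), and without DMSO replicate 1 it was -0.59 (adjusted p = 5.86e-05 in edgeR, with the spread taken from the other groups), still under a fold change of 2. Over all alternatives the adjusted p of Anxa3 ran from 5.86e-05 to 1 in edgeR or DESeq2. For Anxa1 it was -0.16 (95% interval -0.41 to 0.093, adjusted p = 0.812 from the same edgeR test).

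The other members were closer to 0 or less precise. Anxa11 had a difference of -0.20 (95% interval -0.62 to 0.22). Those of Anxa2, Anxa4, Anxa5, Anxa6 and Anxa7 lay between -0.060 and 0.037, and their 95% intervals reached from -0.29 to 0.26 at the widest. A fold change of 2 in either direction lies outside the interval of every member.

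**Figure D4:**
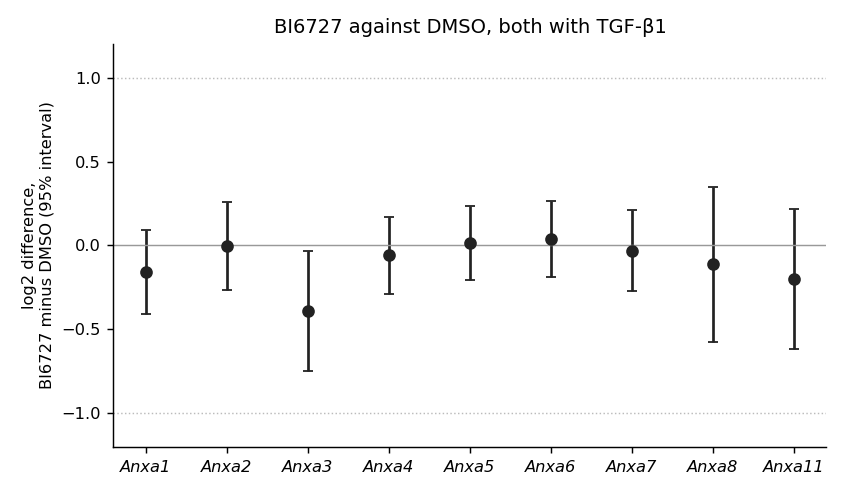
Log2 difference between TGF-β1 with BI6727 and TGF-β1 with DMSO for each annexin, with its 95% interval from the edgeR fit of 6 libraries; dotted lines mark a fold change of 2. All 9 intervals lie inside the dotted lines, and that of Anxa3 (-0.75 to -0.033) is the one that does not reach 0.

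Genes whose products work with annexins were counted from a list of 41 written by role, of which 29 passed the filter. As the list was written with earlier results of these data known, its counts beside the shares of all genes are a description only. Between TGF-β1 with DMSO and vehicle, 3 of the 29 were called higher and 3 lower, against 2.56% and 2.53% of all genes. The same counts, 3 and 3, held between TGF-β1 with BI6727 and vehicle, and 0 were called between BI6727 and DMSO. The median log2 fold change of the 29 was -0.062 with DMSO and -0.065 with BI6727 against vehicle, and -0.077 between BI6727 and DMSO. The numbers of genes called higher and lower against vehicle both depended on the libraries used, and the number called lower also on the settings. The number called lower was 4 in both comparisons with DESeq2, with offsets for exon length, or at an adjusted p-value below 0.05. With DMSO there was 1 without vehicle replicate 1 or without vehicle replicate 2, and with BI6727 there was 1 without vehicle replicate 1, BI6727 replicate 1 or BI6727 replicate 2.

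Calls of the plasminogen system lay in both directions. Plaur, the receptor of urokinase, had 79.5 and 81.6 normalized CPM in vehicle, 272 and 347 with DMSO, and 301 and 299 with BI6727, a log2 fold change of 1.94 (standard error 0.13) and 1.90 (standard error 0.13). Plau, urokinase itself, rose by 1.55 (standard error 0.17) and 1.19 (standard error 0.17) on the log2 scale. Serpine2, of an inhibitor of the activators, fell, with -1.16 (standard error 0.13) and -1.14 (standard error 0.13). Plat, the tissue activator that annexin A2 binds, was not called (0.044 with DMSO and 0.30 with BI6727), and Plg, of plasminogen, had 0 counts in all libraries.

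The other calls were both lower than vehicle. Cav1, of the coat protein of caveolae, had 269 and 271 normalized CPM in vehicle, 106 and 109 with DMSO, and 57.0 and 63.0 with BI6727. Its log2 fold change was -1.33 (standard error 0.095) with DMSO and -2.17 (standard error 0.098) with BI6727. The BI6727 libraries lay below both DMSO libraries, with a log2 difference of -0.84 (95% interval -1.06 to -0.62) that was not called (adjusted p = 0.183 in the edgeR fit). Cpne8, of the copines, another family that binds phospholipids with calcium, lay at -1.08 (standard error 0.15) and -1.60 (standard error 0.16) against vehicle.

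On the partner list, the S100 genes, the phospholipases, Pdcd6 and Pdcd6ip were not called. S100a10 had 639 and 677 normalized CPM in vehicle, 493 and 697 with DMSO, and 582 and 507 with BI6727. Its level per length was 2.11 to 2.69 times that of Anxa2, lowest in DMSO replicate 1 and BI6727 replicate 2 and highest in DMSO replicate 2, so that the groups overlapped. S100a6, also a calcium-binding partner, had log2 fold changes of -0.062 with DMSO and -0.35 with BI6727 against vehicle. S100a4 lay lower, at -1.01 (standard error 0.29) and -1.23 (standard error 0.30), with no overlap with vehicle. It passed a fold change of 2 in both comparisons but met the adjusted p-value threshold only when this was set at 0.05. Pdcd6, of ALG-2, lay at 0.18 and 0.20, and Pdcd6ip at -0.0088 and -0.031. Of the phospholipases, Pla2g4a lay at 0.0039 and 0.24 and Pla2g6 at -0.069 and 0.13.

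Among scaffold and repair genes, Cavin1, of caveolae, lay at -0.82 (standard error 0.11) and -0.84 (standard error 0.11), under a fold change of 2, and Capns1, the small calpain subunit, at -0.0077 and 0.082. Cpne2 and Cpne3 lay at -0.40 and -0.12 with DMSO and at -0.48 and -0.083 with BI6727. The formyl peptide receptors of annexin A1 were at or near 0. Fpr2 and Fpr3 had 0 counts in all libraries and Fpr1 had at most 2, under the limit of 3 counts per library, so that their transcripts were not detectable at this depth.

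**Figure D5:**
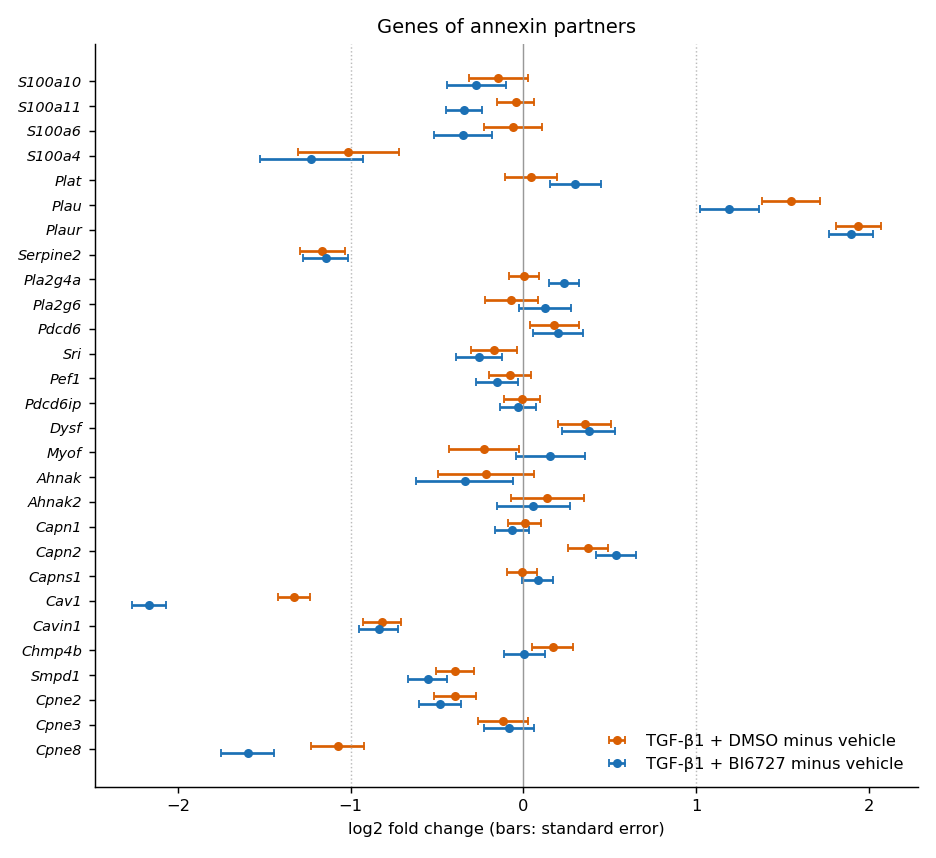
Log2 fold change against vehicle, with standard error, of tested genes of annexin partners, for the group with DMSO and the group with BI6727, both with TGF-β1; dotted lines mark a fold change of 2. Plaur and Plau lie right of the dotted line and Serpine2, Cav1 and Cpne8 left of it in both comparisons, while S100a4 passes it (-1.01 and -1.23) with wide errors and was not called.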

How the data were processed

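Single-end RNA-seq of NIH/3T3 cells gave 6 libraries, 2 in each of 3 groups set by their labels. The authors mapped reads to mm10 with Subjunc (Subread 1.6.4) and used featureCounts with Gencode M20, and the deposited values are raw counts. The strand setting is not given in the sources used here, so reads of overlapping genes may be shared. Symbols were matched by Ensembl identifier for 54723 of 54752 genes.

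The 9518 genes that reached 10 CPM in more than 3 libraries were fitted in R 4.3.3 with edgeR 4.0.16 (TMM scaling, quasi-likelihood test, 6 libraries in 1 fit, 3 residual degrees of freedom), and called at a fold change above 2 with an adjusted p-value below 0.01. Standard errors are the log2 fold change over the square root of F. DESeq2 1.42.0 was an alternative. Log2 CPM used a prior count of 1. The test was checked on simulated counts. Exact permutation of 2 libraries against 2 cannot go below p = 0.333, so none was used. Replicates were different libraries (chi-square per degree of freedom at least 6.53).

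The members, the list of partners and the rule for named genes (all members, partners called or with the highest level in their role, and the 5 profiles closest to Anxa8) were chosen with earlier results of these data known. S100a4 and the third formyl peptide receptor were named after their values were seen. The alternatives were other filters, scalings, thresholds and tools, length offsets, fewer libraries and a replicate block. A partner and a profile that met the rule are not reported here. Shared windows and promoters came from Gencode M21 transcripts and RefSeq.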

Additional observations from a re-analysis of the deposited data

How the results depend on the processing

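Leaving out 1 library at a time leaves a group with 1 sample, which is assumed to vary like the others. Anxa8 was called higher than vehicle in both comparisons under each of the alternatives run, from 5.22 to 6.56 and from 5.11 to 6.45 on the log2 scale. With no fold change minimum, 2 members were higher and 1 lower than vehicle with DMSO, and 1 was lower with BI6727. Leaving out each library gave 1 to 2 members higher with DMSO, and for the partners called lower 1 to 4 with DMSO and 1 to 4 with BI6727. Of members between BI6727 and DMSO, 0 were called under any alternative. Differences close to 0 changed sign. Anxa7 was 0.0043 with DMSO against vehicle with length offsets, and Anxa2 between BI6727 and DMSO was 0.0055 with filterByExpr, 0.0023 with at least 10 counts in total and 0.023 with length offsets. With a library left out, Anxa7 against vehicle lay from -0.17 to 0.047 with DMSO and from -0.20 to 0.017 with BI6727, and between BI6727 and DMSO Anxa2 lay from -0.074 to 0.060, Anxa4 from -0.16 to 0.031, Anxa5 from -0.029 to 0.050 and Anxa6 from -0.046 to 0.12. The differences of replicate 1 minus replicate 2 correlated across genes with r = -0.11 (vehicle and DMSO), 0.047 (vehicle and BI6727) and -0.26 (DMSO and BI6727). No pairing by number was seen in these values. They cannot exclude one, as the DMSO difference followed exon length. With the replicate block, 1, 1 and 0 members were called in the 3 comparisons, as without it, and with the crossed block, added after the data were seen, also 1, 1 and 0. Over all genes, the calls between TGF-β1 with DMSO and vehicle ranged in total from 79 higher and 48 lower without vehicle replicate 1 to 468 and 467 with no fold change minimum, against 244 and 241, and were 402 and 472 with filterByExpr and 413 and 488 with at least 10 counts in total. Those between TGF-β1 with BI6727 and vehicle ranged in total from 81 and 82 without vehicle replicate 1 to 470 and 570 with no fold change minimum, against 223 and 282. Between BI6727 and DMSO they were 0 and 0, but 50 higher and 11 lower without DMSO replicate 1, 1 and 17 without DMSO replicate 2, 0 and 11 with DESeq2, 0 and 6 with length offsets, and 0 and 2 with at least 10 counts in total. Depth limits Anxa8 in vehicle, at 10 and 29 counts, and the annexins left off the list.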
